A study of Mus musculus with 6 samples.

Results

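Iron, copper and metallothionein genes were measured in B10.PL mouse samples whose titles read both choroid plexus epithelium and whole brain. The choroid plexus epithelium lines the folds of the ventricles and secretes cerebrospinal fluid. The rule took every probe set, a group of short probes for 1 transcript, whose platform annotation gave 1 gene symbol from a list of 10. Of the 45101 probe sets on the array, 28 met it, for 9 of the 10 genes: Tfrc, Slc11a2, Fth1, Slc40a1, Cp, Slc31a1, Mt1, Mt2 and Mt3. Trf, transferrin itself, is not described, because its probe set carries several symbols. Of the 28, 3 are array controls for Tfrc, 23 were bright enough to be tested and 2 were not. The arrays came from 3 RAG-/- samples and 3 wild type (WT) samples of the B10.PL strain, each named here by the group in its description and a replicate number. The recombinase made of RAG1 and RAG2 assembles antigen receptors, and without either protein mice form no mature T or B cells. The labels give neither the gene disrupted nor the age, the sex or the number of animals per sample, so p-values measure only the spread between these samples.

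Iron circulates bound to transferrin and enters cells through the transferrin receptor Tfrc, after which the transporter Slc11a2 carries it out of the endosome. Ferritin, of which Fth1 is the heavy chain, stores it, and ferroportin, Slc40a1, exports it with the help of a copper ferroxidase such as ceruloplasmin, Cp. Copper enters through Slc31a1, and the metallothioneins Mt1, Mt2 and Mt3 are small cysteine-rich proteins that bind zinc and copper. The choroid plexus lies between blood and cerebrospinal fluid and is known as a place where iron and copper pass into the brain.

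Codes in the sample titles join the arrays into 3 pairs of 1 RAG-/- and 1 WT sample, numbered as the replicates are. In pair 1 the descriptions state that the samples were reversed and contradict the titles, so each comparison is given by description and by title. By title the RAG-/- arrays are WT replicate 1 and RAG-/- replicates 2 and 3. The labels were checked at Rag1, whose dim probe set had log2 values of 4.6, 6.92 and 6.31 in RAG-/- replicates 1, 2 and 3, against 6.54, 4.16 and 4.35 in WT replicates 1, 2 and 3. By description the groups overlapped at Rag1, and by title all 3 RAG-/- arrays lay above all 3 WT arrays, opposite to what the loss of Rag1 RNA would give. Whether Rag1 is the disrupted gene, and whether the probe set lies in the disrupted part, is not given in the labels, so this does not settle the labels. The Y-linked gene Eif2s3y was at 9.47, 4.26 and 9.76 in RAG-/- arrays, against 4.57, 4.19 and 5.76 in WT arrays, so its signal was high in RAG-/- replicates 1 and 3. Of 4 sex-linked genes, 2 had all 3 RAG-/- arrays on one side of the 3 WT arrays by description, beside 3.10% of all genes. By title 0 did, beside 4.73%. The part of sex in the comparisons was not tested. The defining epithelial marker Ttr lay between 14.69 and 14.83 in all arrays. It was near the top of the normalized scale, so its evenness says little about the amount of epithelium. The mean of 15 epithelial markers was lowest in RAG-/- replicate 2, at 12.60, with 13.37 to 13.63 elsewhere. All signals come from bulk tissue, in which fewer cells of a type and less RNA per cell cannot be told apart.

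The arrays of pair 3 differed from the others in the Gapdh and Actb control probe sets, which read the ends of abundant transcripts. The 3' over 5' intensity ratio of Gapdh was 1.98, 1.93 and 11.4 in RAG-/- replicates 1, 2 and 3, against 2.04, 2.38 and 15.7 in WT replicates 1, 2 and 3. That of Actb was 2.99, 3.18 and 24.1 in RAG-/- arrays, against 4.52, 3.57 and 26.2 in WT arrays. A high ratio is a usual sign of shortened RNA or of a longer amplification. It was shared by both genotypes of pair 3. The dim Tfrc controls did not show it, with ratios of 4.23, 3.22 and 2.03 in RAG-/- arrays, against 2.38, 1.21 and 4.81 in WT arrays.

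**Figure D1:**
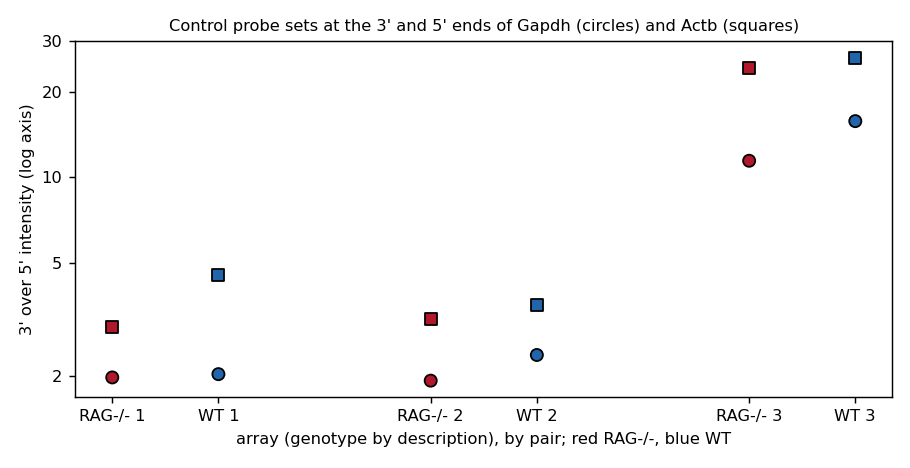
Ratio of 3' to 5' intensity of the Gapdh (circles) and Actb (squares) control probe sets on a log axis, for each array by pair, RAG-/- in red and WT in blue. Both arrays of pair 3 lie between 11.4 and 26.2, and the other 4 arrays between 1.93 and 4.52.

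None of the 9 genes passed the threshold between RAG-/- and WT arrays. Values are log2(intensity + 16) after quantile normalization, which gives all arrays the same distribution. With limma, a moderated linear model fitted over 27022 probe sets with Benjamini-Hochberg adjustment and a threshold of 0.05, 0 of 9 members passed by description and 0% of all probe sets did. By title 0 of 9 passed as well, beside 0% of probe sets. With the pair as a block the counts were 0 of 9 by description, beside 0%, and 0 of 9 by title, beside 0.00370%. At an unadjusted limma p under 0.05, 0 of 9 members stood out by description and 0 by title, beside 0.672% and 1.38% of 13537 genes. With the block the unadjusted count was 0 by description, beside 2.45%, and 3 by title, namely Mt1, Mt2 and Mt3, beside 4.74%. Over the 23 tested probe sets of the members it was 0 by description, beside 0.711% of all probe sets, and 0 by title, beside 1.23%. With the block it was 3 by description, all of Cp, beside 2.35%, and 4 by title, those of Mt1, Mt2, Mt3 and the dimmer one of Slc31a1, beside 4.14%.

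The groups overlapped in all 9 members. In 0 of 9 did the 3 RAG-/- arrays all lie on one side of the 3 WT arrays, under either reading, beside 3.10% of genes by description (1.69% higher and 1.41% lower) and 4.73% by title (2.20% higher and 2.53% lower).

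**Figure D2:**
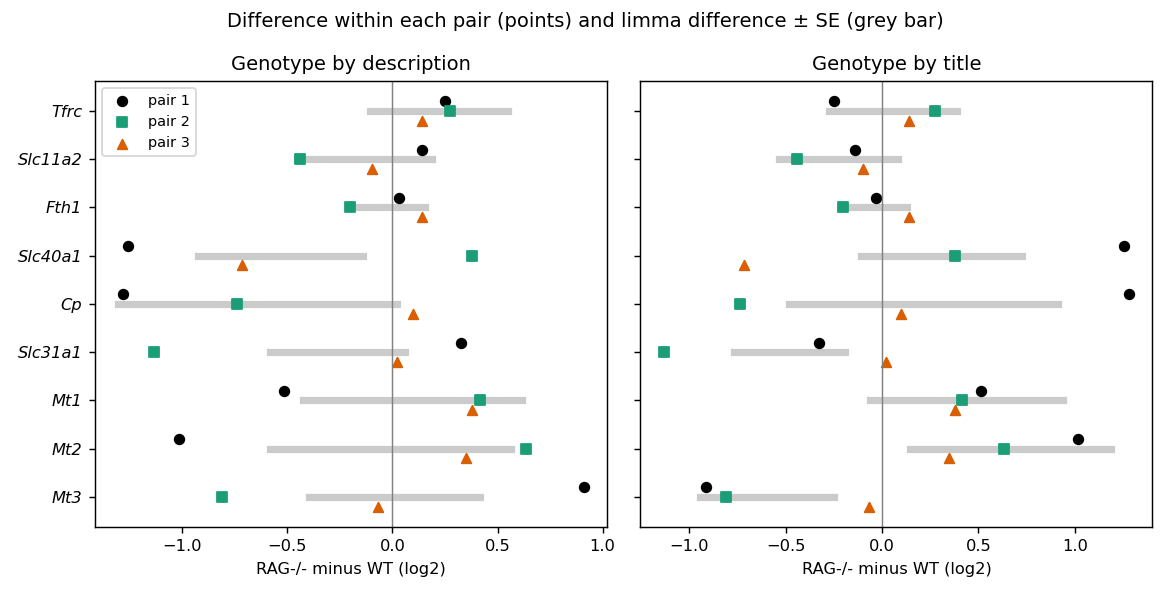
Difference RAG-/- minus WT on the log2 scale within each of the 3 pairs (symbols), with the limma difference over all 6 arrays ± SE as a grey bar, for the brightest probe set of each of 9 genes; genotype by description on the left and by title on the right. Only pair 1 changes sign between the panels, and Mt1 and Mt2 lie right of zero in every pair by title.

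The members were ranked within each array by their brightest probe set, as a percentile among all probe sets other than controls. Fth1 was between the 99.6 and 99.9 percentiles, Slc31a1 between 96.7 and 99.0, Mt1 between 93.2 and 98.7, and Mt2 between 91.4 and 98.3. Tfrc ranked between 86.5 and 92.5, Mt3 between 79.1 and 90.7, and Cp between 76.0 and 95.7. Slc11a2 and Slc40a1 ranked lower, between 68.3 and 76.5 and between 69.8 and 82.7. Against the brightest probe set of each of 13537 tested genes, a stricter comparison, the median percentile was 41.1 for Slc40a1, 41.7 for Slc11a2, 68.6 for Mt3, 72.3 for Cp and 77.9 for Tfrc. It was 91.3 for Mt2, 94.5 for Mt1, 97.7 for Slc31a1 and 99.6 for Fth1, so Slc40a1 and Slc11a2 lay below the middle of the tested genes. These are places of probe sets, which bind with unequal strength, and the genes' RNA levels cannot be ordered from them. Cp changed place most, with a highest deposited intensity 7.86 times its lowest, and Fth1 least, at 1.33 times.

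**Figure D3:**
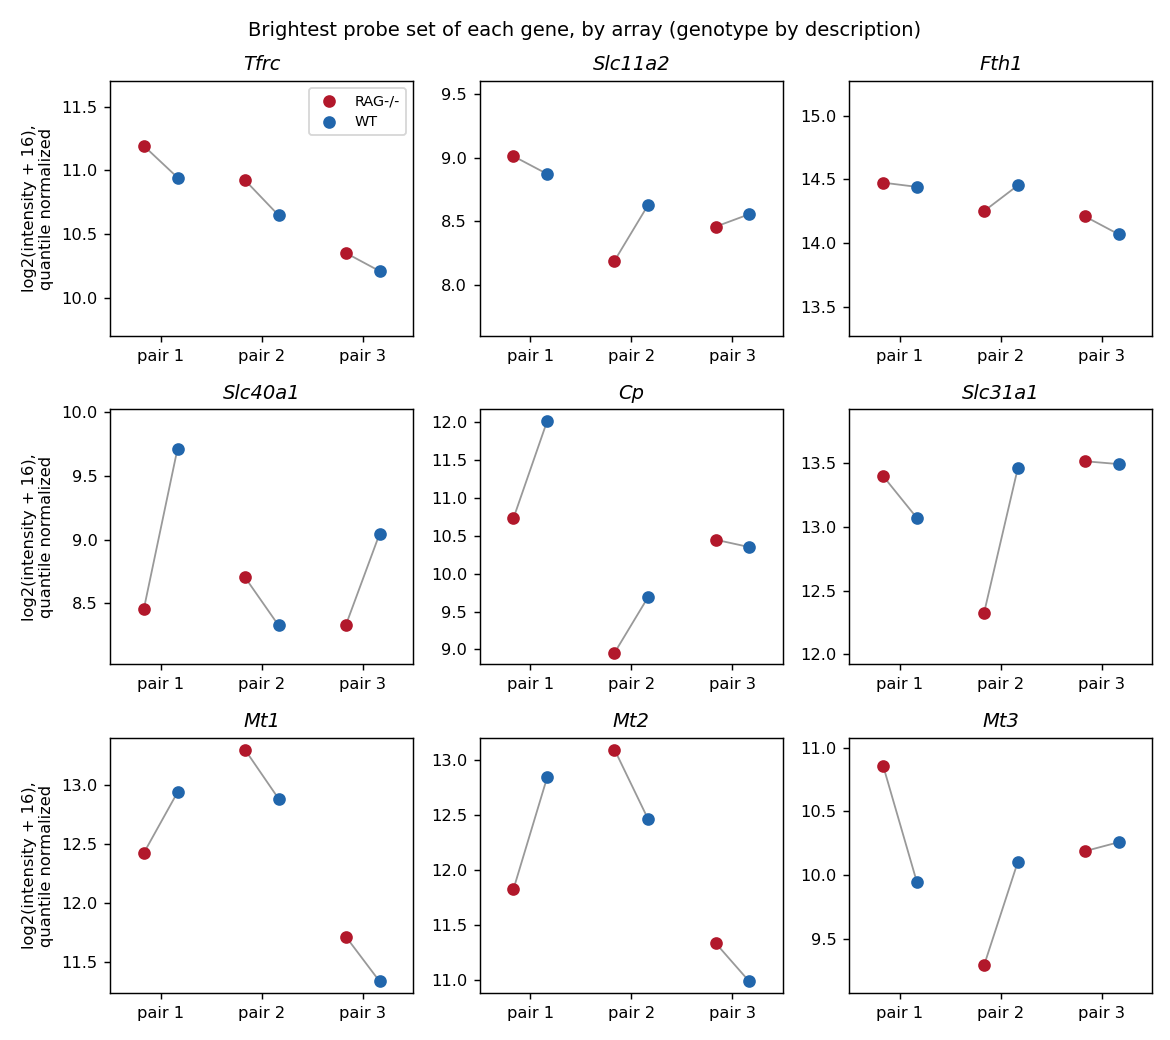
Log2(intensity + 16) of the brightest probe set of each gene in the 6 arrays, by pair, RAG-/- (red) left of WT (blue) by description and joined within pairs; each panel has its own range of at least 2 log2 units. Tfrc, Fth1, Mt1 and Mt2 are lowest in both arrays of pair 3, and Cp, Slc31a1, Slc11a2 and Mt3 are lowest in RAG-/- replicate 2.

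Much of the spread followed the pairs. The share of the variance over the 6 arrays that lay between pairs was 90.1% for Mt1, 89.0% for Tfrc, 79.3% for Cp, 78.2% for Mt2, 77.5% for Fth1 and 74.3% for Slc11a2. It was 41.9% for Mt3, 35.0% for Slc31a1 and 23.4% for Slc40a1, and the median over all genes tested was 64%. Both arrays of pair 3 were below the other 4 in 4 of 9 members, Tfrc, Fth1, Mt1 and Mt2, beside 17.0% of all genes. For Fth1 this held after normalization only, since as deposited RAG-/- replicate 2 was its lowest array. Pair 3 is the pair with the high 3' over 5' ratios, and the part of RNA quality in these low values was not tested.

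Iron uptake genes showed small differences. Tfrc, the transferrin receptor, had deposited intensities of 2353, 1952 and 1251 in RAG-/- replicates 1, 2 and 3, against 1950, 1596 and 1121 in WT replicates 1, 2 and 3. It was higher in the RAG-/- array of each pair by description, by 0.25, 0.28 and 0.14 on the log2 scale, but the pairs differed more from each other than the genotypes did, and the groups overlapped. Genes higher in 3 of 3 pairs made up 9.75% of all genes by description. The mean log2 value was 10.82 ± 0.43 in RAG-/- and 10.60 ± 0.37 in WT arrays (SD, n = 3 each). The difference was 0.22 (95% interval -0.53 to 0.98; limma adjusted p = 1) by description and 0.06 by title. By description it was 0.026 without WT replicate 3, 0.038 without RAG-/- replicate 1, 0.40 without WT replicate 1 and 0.45 without RAG-/- replicate 3.

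The other Tfrc probe sets carry little. A dimmer tested one differed by -0.32, opposite in direction to the brightest. The 3' control probe set of Tfrc, which stayed outside the fit and was not normalized between arrays, had intensities of 45.9, 56.6 and 52.2 in RAG-/- arrays, against 30.03, 24.4 and 27.4 in WT arrays. The groups did not overlap by description, with RAG-/- higher, and overlapped by title. The control for the middle of Tfrc separated by title instead, with RAG-/- lower. These signals are dim, and the brightest probe set of Tfrc did not separate the groups.

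Slc11a2, which moves iron out of the endosome, had intensities of 502, 303 and 305 in RAG-/- arrays, against 471, 392 and 338 in WT arrays. RAG-/- replicate 1 was highest and RAG-/- replicate 2 lowest, so RAG-/- arrays held both ends of the range. The difference was -0.13 (95% interval -0.87 to 0.60; limma adjusted p = 1) by description and -0.23 (95% interval -0.93 to 0.48) by title. By title it was lower in 3 of 3 pairs, as were 15.0% of all genes. Of its 4 tested probe sets, 2 were lower and 2 higher by description, between -0.13 and 0.43, and all 4 were lower by title, between -0.30 and -0.17. Without RAG-/- replicate 2 the brightest differed by 0.049 by description and -0.069 by title.

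Fth1, the ferritin heavy chain that oxidizes and stores iron, sat near the top of the scale. Its brightest probe set had intensities of 22688, 16996 and 20975 in RAG-/- arrays, against 20225, 21978 and 19232 in WT arrays. The groups overlapped, and the difference was -0.01 (95% interval -0.39 to 0.37; limma adjusted p = 1). The other probe set, whose name marks it as shared between transcripts, had 17094, 11322 and 6798 in RAG-/- arrays, against 12549, 13847 and 5059 in WT arrays. It was therefore low in both arrays of pair 3 and had 94.0% of its variance between pairs. Fth1 has many processed copies in the mouse genome, so the transcripts behind either probe set are uncertain.

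The iron exporter Slc40a1 was highest in WT replicate 1. Its brightest probe set had intensities of 334, 435 and 278 in RAG-/- arrays, against 846, 318 and 484 in WT arrays. It was lower in RAG-/- in pairs 1 and 3, by -1.26 and -0.71 on the log2 scale, and higher in pair 2, by 0.38. The means were 8.50 ± 0.19 in RAG-/- and 9.03 ± 0.69 in WT arrays (SD, n = 3 each), a difference of -0.53 (95% interval -1.43 to 0.37; limma adjusted p = 1). Without WT replicate 1 the difference was -0.19, and without WT replicate 2 it was -0.88. By title the difference turned to 0.31 (95% interval -0.65 to 1.27), and the dimmer probe set differed by 0.30 by description.

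Cp, the ferroxidase that loads exported iron onto transferrin, varied most among the members. Its brightest probe set had intensities of 1711, 518 and 1340 in RAG-/- arrays, against 4073, 837 and 1239 in WT arrays. WT replicate 1 stood highest and RAG-/- replicate 2 lowest, and the groups overlapped. The log2 means were 10.04 ± 0.96 in RAG-/- and 10.69 ± 1.20 in WT arrays (SD, n = 3 each), a difference of -0.64 (95% interval -2.17 to 0.88; limma adjusted p = 1) by description. By title it was 0.21 (95% interval -1.39 to 1.81), and without WT replicate 1 it was 0.025 by description.

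The Cp probe sets can be read against each other, since they share 1 target and are not replicates. All 7 tested ones were lower in RAG-/- arrays by description, between -1.29 and -0.53, highest in WT replicate 1 and lowest in RAG-/- replicate 2. The lowest place held for all 7 after normalization only. As deposited, a dimmer one was lowest in WT replicate 3, at 246, with 261 in RAG-/- replicate 2. Another dimmer one was lowest in WT replicate 2, at 241, with 244 in RAG-/- replicate 2. On the normalized scale the tested Cp probe sets were lower in the RAG-/- array of pair 1 in 7 of 7, of pair 2 in 7 of 7 and of pair 3 in 5 of 7. By title 5 were higher and 2 lower, between -0.24 and 0.41. With the pair as a block 3 of the 7, all dimmer than the brightest, had an unadjusted limma p of 0.0042, 0.012 and 0.037 by description, and the lowest adjusted p of the 7 over the 4 fits was 0.926. The eighth, too dim to be tested, did not show the pattern, at 4.65, 6.09 and 5.45 in RAG-/- arrays and 6.07, 4.50 and 4.58 in WT arrays on the log2 scale, and by title its groups did not overlap.

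**Figure D4:**
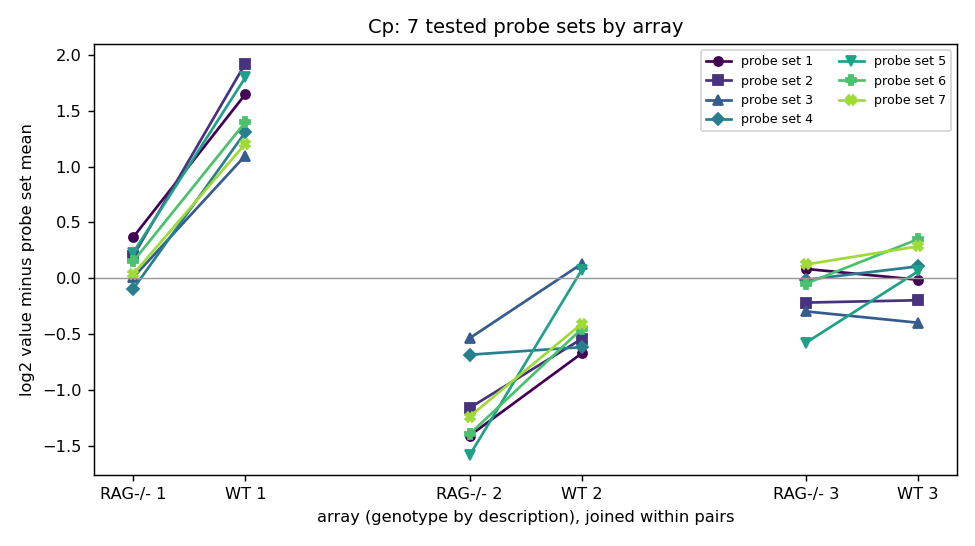
Log2 value minus the probe set's own mean over 6 arrays for the 7 tested Cp probe sets, by array and joined within pairs, RAG-/- left of WT by description. On this normalized scale all 7 are highest in WT replicate 1 and lowest in RAG-/- replicate 2, and the arrays of pair 3 lie between these extremes.

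Slc31a1, the high-affinity copper importer, was low in 1 array. Its intensities were 11017, 4765 and 12839 in RAG-/- arrays, against 8317, 10773 and 12832 in WT arrays. RAG-/- replicate 2, the array with the low epithelial markers, was below every other array, and the remaining 5 overlapped. The difference was -0.26 (95% interval -1.0 to 0.48; limma adjusted p = 1) by description and -0.48 (95% interval -1.14 to 0.19) by title. Without RAG-/- replicate 2 it was 0.12 by description and -0.16 by title. The dimmer probe set was lowest in the same array, at 643, with 1094 to 2225 in the rest. By title it differed by -0.80 and was lower in 3 of 3 pairs, with an unadjusted p of 0.0243 and an adjusted p of 0.926 in the limma fit with the block. The brightest probe set differed by -0.33, -1.13 and 0.02 within the pairs by title. RAG-/- replicate 2 was the lowest array in 4 of 9 members, Cp, Slc31a1, Slc11a2 and Mt3, and in 31.2% of all genes.

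The metallothioneins Mt1 and Mt2, which are induced by metals, glucocorticoids and inflammatory signals, moved together. They are neighbours on chromosome 8, with Mt3, and their start regions are shown because zinc induces Mt1 and Mt2 through metal response elements. The letters of the element's core, TGCACNC and TGCGCNC, were searched on both strands of RefSeq's GRCm38.p6 sequence, and matches are in capitals. Each line shows 300 bases, of which 250 lie before the annotated start and 50 after it. Mt1 is at chr8:94178839-94179138, Mt2 at chr8:94172368-94172667 and Mt3 at chr8:94152357-94152656, all on the plus strand.
Mt1: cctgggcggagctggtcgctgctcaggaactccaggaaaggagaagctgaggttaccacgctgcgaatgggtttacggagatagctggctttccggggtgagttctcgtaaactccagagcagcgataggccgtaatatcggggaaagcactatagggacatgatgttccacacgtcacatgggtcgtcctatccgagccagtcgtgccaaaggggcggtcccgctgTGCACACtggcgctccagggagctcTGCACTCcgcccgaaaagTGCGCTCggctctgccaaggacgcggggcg
Mt2: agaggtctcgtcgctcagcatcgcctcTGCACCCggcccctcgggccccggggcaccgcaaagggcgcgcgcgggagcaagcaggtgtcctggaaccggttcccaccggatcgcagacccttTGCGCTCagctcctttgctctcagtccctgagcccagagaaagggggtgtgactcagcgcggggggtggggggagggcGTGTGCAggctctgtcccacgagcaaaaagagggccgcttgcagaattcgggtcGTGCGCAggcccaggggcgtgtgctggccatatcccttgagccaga
Mt3: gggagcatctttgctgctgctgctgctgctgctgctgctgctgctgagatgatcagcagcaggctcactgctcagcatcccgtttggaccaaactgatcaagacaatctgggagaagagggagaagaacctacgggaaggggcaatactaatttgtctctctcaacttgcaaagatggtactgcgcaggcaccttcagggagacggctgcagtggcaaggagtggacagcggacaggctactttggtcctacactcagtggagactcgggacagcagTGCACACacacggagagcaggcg
The 250 bases before the start were searched first and held 1 match in Mt1, 3 in Mt2 and 0 in Mt3. Of 32851 such stretches in the table, 21.4% held at least 1 match and 1.26% at least 3. After these counts were seen the search was widened to the 300 bases shown, in which Mt1 held 3 matches, Mt2 held 4 and Mt3 held 1, none of them overlapping. Of all 300-base windows 25.7% held at least 1, 1.97% at least 3 and 0.517% at least 4. A match is a run of letters and not a site shown to be bound.

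Mt1 had intensities of 5515, 9064 and 3469 in RAG-/- arrays, against 7734.5, 7301 and 2578 in WT arrays. Mt2 had 3633, 7739 and 2633 in RAG-/- arrays, against 7253, 5523 and 1999 in WT arrays. Both were highest in RAG-/- replicate 2 and lowest in WT replicate 3, with both arrays of pair 3 below the rest, and over the 6 arrays they correlated at r = 0.98. Of 13528 other genes, 14 were closer to Mt1 than Mt2 was, and 7 closer to Mt2 than Mt1 was.

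By description Mt1 and Mt2 differed little in the mean and the pairs disagreed. The difference was 0.09 for Mt1 (95% interval -1.10 to 1.29) and -0.01 for Mt2 (95% interval -1.33 to 1.30), each with a limma adjusted p of 1. In pairs 1, 2 and 3 Mt2 differed by -1.02, 0.63 and 0.35, and Mt1 by -0.51, 0.42 and 0.38. By title, where pair 1 turns, both were higher in the RAG-/- array of all 3 pairs, as were 10.6% of all genes. The difference by title was 0.67 for Mt2 (95% interval -0.54 to 1.87) and 0.44 for Mt1 (95% interval -0.71 to 1.58). With the pair as a block the unadjusted p by title was 0.0081 for Mt2 and 0.0171 for Mt1, and the limma adjusted p was 0.926 for both. In alternatives chosen after the data were seen, leaving out 1 array at a time gave 0.28 to 1.20 for Mt2 and -0.0021 to 0.90 for Mt1 by title, the lowest in both without WT replicate 3. All 11 markers of oligodendrocytes were higher in RAG-/- arrays by description and by title, with median differences of 1.08 and 1.24. By title 11 of 11 had an unadjusted limma p under 0.05, beside 1.38% of all genes, and 7 separated the groups, beside 4.73%. By description 3 of 11 had such a p, beside 0.672%, and 1 separated the groups, beside 3.10%. Of these markers 0 passed the adjusted threshold under either reading. Their part in the Mt1 and Mt2 values was not tested. A dimmer Mt1 probe set differed by 0.24 by description and 0.35 by title. Within pairs 1, 2 and 3 it differed by 0.16, -0.10 and 0.99 by title, so it was not higher in every pair. Its log2 values were 5.91, 6.57 and 6.47 in RAG-/- arrays, against 6.07, 6.67 and 5.48 in WT arrays. It was thus not low in both arrays of pair 3, and 51.4% of its variance lay between pairs. Mt1's brightest probe set carries a name that marks it as shared between transcripts.

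Mt3, the metallothionein best known from neurons and astrocytes, went the other way within pairs. It had intensities of 1869, 656 and 1111 in RAG-/- arrays, against 991, 1111 and 1156 in WT arrays. RAG-/- replicate 1 was highest and RAG-/- replicate 2 lowest, so RAG-/- arrays enclosed the WT arrays. The difference was 0.01 (95% interval -0.93 to 0.95; limma adjusted p = 1) by description and -0.60 (95% interval -1.39 to 0.20) by title. By title it was lower in 3 of 3 pairs, by -0.91, -0.81 and -0.07, as were 15.0% of all genes, with an unadjusted p of 0.0446 and an adjusted p of 0.926 in the limma fit with the block. Without RAG-/- replicate 2 the difference by title was -0.34. Mt3 differed in the opposite direction to Mt1 and Mt2 in each of the 3 pairs.

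The members were then set beside marker lists of the cell types that the tissue could hold. For each member the r given is the highest over 13 lists and 6 arrays, which form 3 pairs and are not independent, so r is a description without a test. The list mean was taken over its tested genes. Mt2 and Mt1 lay closest to the 11 astrocyte markers (r = 0.95 and 0.92; 0.94 and 0.90 without RAG-/- replicate 2). The astrocyte mean was 11.12, 12.14 and 10.47 in RAG-/- arrays, against 11.69, 11.20 and 10.60 in WT arrays. Of these markers 8 of 11 were lowest in both arrays of pair 3, as were 8 of 10 neuronal markers, so 3' over 5' ratios move with this likeness. In pair 3 Mt2 was higher in RAG-/- by 0.35 while the astrocyte mean differed by -0.14. The neuronal list followed for Mt2 and Mt1 (r = 0.88 and 0.90). The 11 oligodendrocyte markers had r of only 0.35 and 0.30 but shared the sign of Mt2 and Mt1 in 3 of 3 pairs. Their mean was 10.08, 11.70 and 11.65 in RAG-/- arrays, against 10.55, 10.27 and 9.78 in WT arrays. Response lists were compared as well. The 12 glucocorticoid-induced genes had r of 0.62 with Mt2 and 0.57 with Mt1. These were 0.91 and 0.82 without RAG-/- replicate 2, and 0.10 and 0.24 without the 2 arrays farthest from the list's median. The 9 acute phase and interleukin 6 genes had r of -0.18 and -0.21, and the 11 hypoxia-induced genes -0.14 and -0.28. The part of RNA quality, of these responses and of the cell types above in the Mt1 and Mt2 values was not tested.

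Cp lay closest to the 7 granulocyte markers, genes of neutrophil granules (r = 0.96, and 0.92 without RAG-/- replicate 2). Their mean was 8.94, 6.46 and 9.04 in RAG-/- arrays, against 10.76, 7.11 and 9.35 in WT arrays, and 7 of 7 were highest in WT replicate 1. Endothelial and fibroblast lists followed at r = 0.88 each, so several lists were close, and these r were 0.15 and -0.11 without the 2 arrays farthest from the list's median. Macrophage and pericyte lists came next at r = 0.87 each, and the erythroid list at 0.85. With the same kind of omission these were 0.73, -0.19 and 0.56, and the granulocyte list was at 0.92. The erythroid list shared the sign of Cp in 3 of 3 pairs and the granulocyte list in 2 of 3. The 9 acute phase and interleukin 6 genes, a response list to which Cp itself could belong, reached r = 0.97. The granulocyte alarmin S100a8 was at 10.79, 6.62 and 11.14 in RAG-/- arrays and 13.21, 7.60 and 11.86 in WT arrays. By description all 12 fibroblast, 8 endothelial and 7 granulocyte markers were lower in RAG-/- arrays, as Cp was, with medians of -0.96, -0.46 and -0.93. By title these medians were -0.41, -0.11 and 0.30. Of the fibroblast markers 5 separated the groups by description, beside 3.10% of all genes, and 0 by title, beside 4.73%. Macrophage markers were split, with 5 lower and 5 higher by description. The part of blood, inflammation or these cell types in the Cp values was not tested.

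Slc31a1 and Mt3 lay closest to the 15 epithelial markers (r = 0.94 and 0.87), and both values rest on RAG-/- replicate 2, since they were 0.37 and 0.67 without it. For Mt3 the 4 sex-linked genes, of which Xist runs against the 3 Y-linked ones, came second (r = 0.80) and held at 0.79 without RAG-/- replicate 2 and at 0.78 without the 2 arrays farthest from the list's median. The sex-linked mean was 8.98, 6.64 and 8.64 in RAG-/- arrays, against 6.83, 6.90 and 7.51 in WT arrays, and the part of sex in the Mt3 values was not tested. In RAG-/- replicate 2 all 15 epithelial markers were the lowest of the 6 arrays. It also held the highest neuronal mean, 11.88, with 9.05 and 10.27 in the other RAG-/- arrays and 9.51 to 10.79 in WT arrays. Slc11a2 lay closest to the endothelial list (r = 0.85, and 0.74 without RAG-/- replicate 2), Slc40a1 to pericytes and smooth muscle (r = 0.78, and 0.87 without it) and Tfrc to astrocytes (r = 0.70, and 0.75 without it). Fth1 reached no more than r = 0.52 over 6 arrays, with the endothelial list, and this depended on the normalization. As deposited, its r with the epithelial list was 0.88, against 0.34 after normalization. Its r with the neuronal list was -0.45 as deposited, against 0.37. The epithelial list shared the sign of Fth1 in 3 of 3 pairs and the neuronal list in 0 of 3. Without RAG-/- replicate 2 another list was the closest for several members, namely fibroblasts for Slc40a1 (r = 0.91), macrophages for Slc11a2 (r = 0.80), neurons for Fth1 (r = 0.83), ependyma for Slc31a1 (r = 0.52) and the sex-linked genes for Mt3. With the 2 arrays farthest from the list's median left out, r was 0.96 for Mt2, 0.92 for Cp, 0.90 for Mt1 and 0.84 for Slc11a2. It was then 0.48 for Slc31a1, 0.26 for Slc40a1 and 0.07 for Mt3, whose likenesses thus rested on those arrays. Over the 3 within-pair differences r with the same list was 0.25 for Slc11a2, 0.43 for Tfrc, 0.50 for Slc40a1, 0.75 for Mt1, 0.82 for Mt2, 0.83 for Fth1, 0.87 for Mt3, 0.91 for Cp and 0.99 for Slc31a1. Each of these rests on 3 points. In pair 2, which holds RAG-/- replicate 2, Slc31a1 differed by -1.13 and the epithelial mean by -0.97. In pairs 1 and 3 Slc31a1 differed by 0.33 and 0.02, and the epithelial mean by 0.25 and 0.12, so the 0.99 again rests on that array.

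**Figure D5:**
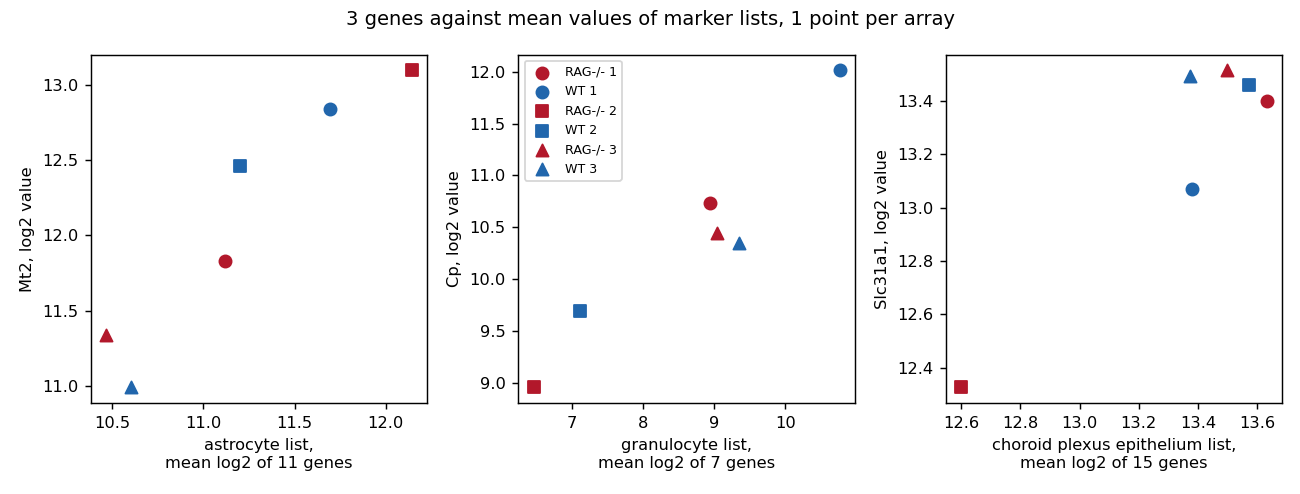
Log2 value of Mt2, Cp and Slc31a1 (y axes) against the mean log2 value of the astrocyte (11 genes), granulocyte (7 genes) and choroid plexus epithelium (15 genes) lists (x axes), 1 point per array; red RAG-/-, blue WT, and circles, squares and triangles for pairs 1, 2 and 3. Mt2 follows its list over most of the range, and Cp follows its list at the ends. In RAG-/- replicate 1, RAG-/- replicate 3 and WT replicate 3 Cp falls (10.73, 10.45 and 10.35) while the granulocyte mean rises (8.94, 9.04 and 9.35). Slc31a1 parts RAG-/- replicate 2, at 12.60 on its x axis, from 5 arrays between 13.37 and 13.63.

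The single genes with the most similar pattern were read from 13528 genes, a number at which close matches over 6 arrays are common, with 6 to 177 genes per member above r = 0.95. Tfrc lay closest to Kcnq1, Hmgb3 and Tsr3 (r = 0.99 each), Slc40a1 to Pus7, Ahnak2 and Epha7 (r between 0.95 and 0.98) and Cp to Ranbp3l, Ier2 and Klrd1. Slc31a1 lay closest to Elavl1, Tgfb2 and Diaph1, Fth1 to Fxyd1, Pcna and Cdk2, and Slc11a2 to Otud6b, Smim6 and Itgb1bp1. Mt1 lay closest to Chrd, Actr1a and Bcas2, Mt2 to Kbtbd11, Nell2 and Actr1a, and Mt3 to Lman2, Ndufaf6 and P3h1. Actr1a, a subunit of dynactin, was the gene that Mt1 and Mt2 had in common.

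Other genes that handle iron, heme, copper and zinc held no gene past the threshold. Of 91 listed genes beyond the members 78 were tested, and 0 passed the threshold in each of the 4 limma fits. By description 43 were lower and 35 higher, with a median difference of -0.06, beside -0.01 over all genes. By title the median was -0.12, beside -0.02 over all genes. The 3 RAG-/- arrays lay on one side of the 3 WT arrays in 1 of 78 by description, beside 3.10% of all genes, and in 7 of 78 by title, beside 4.73%. At an unadjusted p under 0.05 there were 0 of 78 by description, beside 0.672% of all genes, and 3 of 78 by title, beside 1.38%. With the pair as a block there were 1 of 78 by description, beside 2.45%, and 7 of 78 by title, beside 4.74%. By title both the separated and the unadjusted counts were thus a larger share of the list than of all genes, which was not tested.

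Among the separated genes, Tmprss6, a protease known from the liver for restraining hepcidin, was higher by title by 1.11, with an unadjusted limma p of 0.0144 and an adjusted p of 1. Its log2 values were 6.57, 7.26 and 7.88 in RAG-/- replicates 1, 2 and 3, against 7.01, 6.33 and 5.93 in WT replicates 1, 2 and 3, a dim signal. Cybrd1, a ferric reductase, and Hjv, a coreceptor in hepcidin control, were higher by title by 0.55 and 0.30. Cyb561, a transmembrane reductase, was lower by title by -0.47, the zinc transporter Slc39a12 by -0.39, the copper transporter Slc31a2 by -0.28 and the copper-zinc superoxide dismutase Sod1 by -0.15. Of the 78 genes only Pgrmc1, a heme-binding membrane protein, separated by description, at -0.09.

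By the brightest tested probe set, the fixed set of regulators and transporters held no gene past the threshold or without overlap. The log2 difference by description was -0.17 for Heph, the membrane ferroxidase related to Cp, -0.22 for Aco1 and -0.20 for Ireb2, the iron regulatory proteins that bind ferritin and transferrin receptor messages. It was -0.06 for Mtf1, the zinc-sensing factor of the metallothionein genes, and -0.11 for the zinc exporter Slc30a1. These are the brightest probe sets. A dimmer Aco1 one was at 10.01, 9.76 and 9.38 in RAG-/- arrays, against 9.61, 9.78 and 9.35 in WT arrays. For Mtf1, 1 dimmer probe set was at 7.44, 6.40 and 8.81, against 7.81, 7.60 and 9.29, lower in RAG-/- in each pair. Another was at 8.30, 6.86 and 8.27, against 8.12, 7.19 and 7.54, higher in pairs 1 and 3. The copper pump Atp7a was at 12.70, 11.59 and 12.92 in RAG-/- arrays, against 12.75, 12.70 and 12.92 in WT arrays, and was low in RAG-/- replicate 2 as Slc31a1 was. Atp7a differed by -0.39 and Atp7b, the related pump, by 0.32. A dimmer tested Atp7b probe set was at 6.63, 8.03 and 7.44 in RAG-/- arrays, against 6.64, 7.02 and 7.51 in WT arrays. Another Atp7b probe set, below the filter, was at 5.98, 6.45 and 5.12, against 4.45, 4.91 and 4.96. Its groups did not overlap by description, with RAG-/- higher, and overlapped by title. Hamp, the iron hormone hepcidin, and Hmox1, which degrades heme, were below the filter. Ftl1, the ferritin light chain, is left out because no probe set is annotated to it alone.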

How the data were processed

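The deposited table holds 1 linear intensity per probe set and array. With 2% of probe sets trimmed from either end, RAG-/- replicate 1, the array computed, averaged 500. This scaling was read from the values, since no source states the authors' software or normalization. The 64 array controls were set apart. Intensities were converted to log2(intensity + 16), a scale that understates fold changes of dim probe sets. They were quantile normalized because the 75th percentiles differed by 0.232, over a limit of 0.2. The lowest 40% by mean were left out, which left 27022 probe sets and 13537 genes, the brightest probe set standing for its gene. limma 3.58.1 in R 4.3.3 (lmFit, eBayes with trend, two-sided) was run on all of them and checked on simulated data. Symbols come from the platform annotation, updated by gene number through RefSeq's GRCm38.p6 table, which also held promoters of 7 of the 10 genes.

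The members and lists were chosen with earlier results of these data known. Beyond the members, the text names up to 4 genes per metal list whose groups did not overlap, in order of size, 10 fixed genes and the 3 genes most alike to each member. Rag1, Eif2s3y, Ttr and S100a8 were added after their values were seen. Deviations from group means correlated at 0.29, 0.39 and 0.58 within pairs, so the code in the titles was taken to pair the samples. The promoter search was widened after its first counts were seen. Alternatives changed the genotype label, the pairing, the arrays, the scaling, the pseudocount, the filter, the weights and the probe set. Exact permutation of 3 against 3 arrays cannot go below p = 0.1 and was not used.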

Additional observations from a re-analysis of the deposited data

How the results depend on the processing

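In every alternative run, 0 members and 0 other metal-handling genes passed the threshold, and the lowest adjusted p of a member was 0.926. Against the main difference by description, the direction turned in 40 of 169 alternatives, at least once for each of the 9 members. The 169 include the fits by title with and without the block, whose differences are identical. They also include the block by description and the fit without the filter, which leave the difference unchanged and so could not turn it. By title, with or without the replicate block of the pair, the difference was 0.31 for Slc40a1, 0.21 for Cp, 0.67 for Mt2 and -0.60 for Mt3, against the description's direction. With pair 1 left out Mt2 was at 0.49 and Mt3 at -0.44. With pair 2 left out Slc31a1 was at 0.18, Fth1 at 0.085, Slc11a2 at 0.019 and Mt1 at -0.071, and with pair 3 left out Mt1 was at -0.050. Array weights gave 0.029 for Slc31a1, 0.010 for Fth1, 0.025 for Slc11a2 and -0.24 for Mt1, and a common median gave 0.0083 for Fth1. The second brightest probe set gave -0.32 for Tfrc, 0.30 for Slc40a1, 0.20 for Fth1 and 0.18 for Slc11a2. Leaving out 1 array at a time gave -1.14 to 0.025 for Cp, -0.47 to 0.12 for Slc31a1, -0.13 to 0.054 for Fth1, -0.36 to 0.049 for Slc11a2, -0.43 to 0.47 for Mt1, -0.56 to 0.36 for Mt2, -0.36 to 0.42 for Mt3, 0.026 to 0.45 for Tfrc and -0.88 to -0.19 for Slc40a1. By title, leaving out each array and each pair was chosen after seeing the data, and the direction turned in 14 of 81 cases. Without single arrays the difference by title was -0.18 to 0.31 for Tfrc, -0.093 to 0.59 for Slc40a1, -0.56 to 0.99 for Cp, -0.16 to 0.038 for Fth1 and -0.0021 to 0.90 for Mt1. Without pair 1 it was -0.17 for Slc40a1 and -0.32 for Cp, and without pair 2 it was -0.058 for Tfrc and 0.051 for Fth1. By title Mt2, Mt3, Slc11a2 and Slc31a1 kept their direction in these 9 cases but moved in size, and without RAG-/- replicate 2 were at 0.34, -0.34, -0.069 and -0.16. The cause was not tested. The replicate block changed no call. The number of arrays limits the precision, and dim probe sets depend on the background estimate.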
